A study of Mus musculus with 12 samples.

Results

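The 3 ESC lines described here carry *Ring1A*-/-; *Ring1B* fl/fl; Rosa26::CreERT2 alleles and a stable construct for Ring1B with the I53S exchange (lines #1 and #4) or the I53A exchange (line #1), and they are called the mutant lines below. They were chosen by the construct named in the labels, and they give 6 of the 12 arrays and 3 of the 6 lines of the series. The other lines carry a mock construct (1 line) or WT Ring1B (2 lines, #1 and #3) on the same alleles. Each line was measured once untreated (OHT-) and once on day 2 after the start of OHT treatment (OHT+), where OHT is 4-hydroxytamoxifen given at 800 nM for 24 h. All lines lack Ring1A from the start and are of a 129/B6 hybrid background, and OHT switches on the CreERT2 recombinase, which removes the endogenous *Ring1B* in any cell that carries it. The Ring1B constructs are 3xFlag-tagged, are driven by a CAG promoter and were selected with puromycin. Each line is 1 stable transfectant, and the cells were kept on irradiated MEF feeders or on gelatin, so that an array of these cultures can hold feeder RNA. The comparison made was OHT+ minus OHT- within each line, which asks what happens to transcription when an exchanged Ring1B is the only Ring1 protein left.

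Ring1A and Ring1B are the RING finger subunits of the Polycomb repressive complex PRC1, and they carry the E3 ligase activity that places a single ubiquitin on histone H2A. The exchanged isoleucine lies on the surface that binds the ubiquitin-conjugating enzyme, so that the exchanged proteins can join PRC1 but lack the ligase activity. In ESCs, PRC1 is known for keeping regulators of embryonic development silent, and variant forms of PRC1 are known for keeping germ cell genes silent.

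The arrays fitted the cell type of the labels. Of the ESC markers, *Pou5f1* lay between 12.34 and 12.67, *Nanog* between 12.45 and 12.72 and *Dppa5a* between 14.34 and 14.47 on the 6 arrays (log2 signal), and their changes after OHT did not pass the test (adjusted p = 0.213, 0.797 and 0.954 from limma). *Sox2*, a partner of *Pou5f1*, had changes of -0.31, -0.35 and -0.33 (adjusted p = 0.0884), where values of the 3 lines stand here and below in the order I53S #1, I53S #4, I53A #1. Of the other ESC markers chosen, *Esrrb* and *Utf1* were below 0 in each probe set. The mean changes ran from -0.57 to -0.06 (3 probe sets) and from -0.52 to -0.08 (3 probe sets). Neither gene was called, nor were *Zfp42* and *Tdgf1*, the remaining markers. *Rnf2*, the gene of Ring1B, had changes of -0.18, 0.20 and -0.29 and *Ring1*, the gene of Ring1A, of 0.53, 0.18 and -0.23. These probe sets do not check the deletion, because their position relative to the deleted part is not known here and a construct's RNA can reach them. Markers of fibroblasts, the cells of a feeder layer, were also followed. Of 22 measured markers 2 were called higher (9.09%, against 4.91% over all genes) and 0 lower, with medians of 0.48, 0.20 and 0.14. The summed signal of the markers (log2) went from 13.08, 12.82 and 12.23 to 13.60, 12.91 and 12.15, up in both I53S lines and down in I53A #1. The 2 called markers were *Thy1*, a surface protein of fibroblasts and of other cells (0.68), and *Lox*, which crosslinks collagen (0.49). Their part in the results below was not tested.

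After OHT, genes of embryonic patterning and of the germ line rose in the mutant lines, and the falls were fewer and smaller. Among 16432 genes, limma with the cell line as a block called 807 (4.91%) higher and 255 (1.55%) lower at an adjusted p below 0.05. The unadjusted p was below 0.05 for 3888 genes. The p-values measure the spread between these lines, and in cultures measured whole, fewer cells of a type and less RNA per cell cannot be told apart. The median log2 change was 0.87 among the genes called higher and -0.64 among those called lower. A mean change of at least 1, which is a doubling, was reached by 311 of the higher genes, and a mean of -1 or less by 23 of the lower ones. Of the 807 genes, 127 had a mean signal under 3.94 before OHT, which is the filter value used here, and their log2 changes depend on how such low signals were measured. Of the 255 genes called lower, 4 had such a signal. A gene could pass the filter through its OHT+ arrays alone, and one this dim before OHT has little room to fall. With 1 mutant line left out, the counts were 145 higher and 16 lower without I53S #1, 168 and 26 without I53S #4, and 144 and 9 without I53A #1. Without the block on the line, the counts were 486 and 77. Without either WT line, 610 were higher and 125 lower. With the values as deposited, 540 were higher and 571 lower, so that the higher genes made up 48.6% of the calls in place of 76.0%. The median over all genes was then -0.13.

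The largest rise was that of *Tbx1*, a T-box factor gene of the pharyngeal region. Its log2 signal was 4.37, 3.91 and 4.50 before OHT and 6.85, 7.04 and 7.0 on day 2. All 3 arrays after OHT lay above all 3 before it, as they did for 1858 genes (11.3%), and the mean change was 2.70 or 6.51-fold (SE 0.16, adjusted p = 0.00536, n = 3 lines). *Tac1*, the precursor of substance P, had signals of 3.05, 3.04 and 3.53 before OHT and 5.0, 6.37 and 6.10 on day 2. Its rise of 2.62 (SE 0.29, adjusted p = 0.0107) was smallest in I53S #1 and largest in I53S #4, with a gap of 1.38 between them. *Zic1*, a zinc finger factor of the neural plate, had signals of 3.43, 3.47 and 3.77 before OHT and 5.81, 6.36 and 6.08 on day 2 and rose by 2.53 (SE 0.13, adjusted p = 0.00458). *Rbm46*, an RNA-binding protein gene of germ cells, rose by 2.48, *Bhmt2*, a methyltransferase gene of the methionine cycle, by 2.47, and *Nr2f1*, an orphan nuclear receptor, by 2.43. The line changes of *Myh6*, the alpha heavy chain of cardiac myosin, were 2.33, 2.30 and 2.11, and those of *Tlcd4*, a membrane protein gene, were 2.13, 2.24 and 2.22. The gap between lines was 0.22 for *Myh6* and 0.11 for *Tlcd4*. *Lhx2*, a LIM homeobox gene of forebrain and limb, also rose by 2.25, but with changes of 1.36, 2.86 and 2.54 and an SE of 0.43. With probe sets of low signal kept and averaged in, *Tac1* had 1.18, *Myh6* had 1.19 and *Tlcd4* had 0.69. *Tac1* had 1.06 with the values as deposited. The changes of single probe sets differed within *Zic1* (2 probe sets, from 1.69 to 3.38). Without any 1 of the mutant lines *Tbx1*, *Zic1*, *Bhmt2*, *Nr2f1*, *Myh6* and *Tlcd4* kept their calls. *Tac1* and *Rbm46* lost theirs in 1 such fit each and *Lhx2* in all 3 (highest adjusted p from 0.0524 to 0.163).

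The largest fall was that of *Trh*, the precursor of thyrotropin-releasing hormone. Its log2 signal was 11.01, 10.44 and 9.82 before OHT and 8.70, 8.38 and 8.31 on day 2. All 3 arrays after OHT lay below all 3 before it, as they did for 1526 genes (9.29%), and the gene fell by 1.96 or 3.89-fold (SE 0.16, adjusted p = 0.00617). *Egr1*, an immediate early zinc finger gene, had signals of 8.73, 8.21 and 7.24 before OHT and 6.62, 6.79 and 5.87 on day 2 and fell by 1.63 (SE 0.17, adjusted p = 0.00941). *Myo1f*, an unconventional myosin gene of leukocytes, had signals of 8.03, 8.49 and 8.71 before OHT and 6.31, 6.91 and 7.24 on day 2 and fell by 1.59 (SE 0.09, adjusted p = 0.00536). The arrays of *Myo1f* before and after OHT did not overlap. *Nr0b1*, an orphan nuclear receptor gene of the pluripotency network, fell by 1.32 with line changes of -1.34, -1.23 and -1.40. *BC064078* and *Sult6b1*, a sulfotransferase gene, fell by 1.46 and 1.38. *Slc7a3*, a carrier of basic amino acids, fell by 1.17, *Polr3gl*, an RNA polymerase III subunit gene, by 1.16, *Enpp3*, an ectonucleotidase gene, by 1.13, and *Socs2*, an inhibitor of cytokine signalling, by 1.11. With dim probe sets kept, *BC064078* had -0.94. Single probe sets ranged widely for *Enpp3* (4 probe sets, from -1.61 to -0.56) and *Socs2* (6 probe sets, from -1.52 to -0.52). When any 1 mutant line was left out, *Trh*, *Myo1f*, *Nr0b1*, *Polr3gl* and *Enpp3* kept their calls, while *Egr1*, *BC064078*, *Sult6b1*, *Slc7a3* and *Socs2* lost theirs without at least 1 of them (highest adjusted p from 0.0519 to 0.0969). With no block, the call of *Polr3gl* ended (adjusted p = 0.0823).

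**Figure D1:**
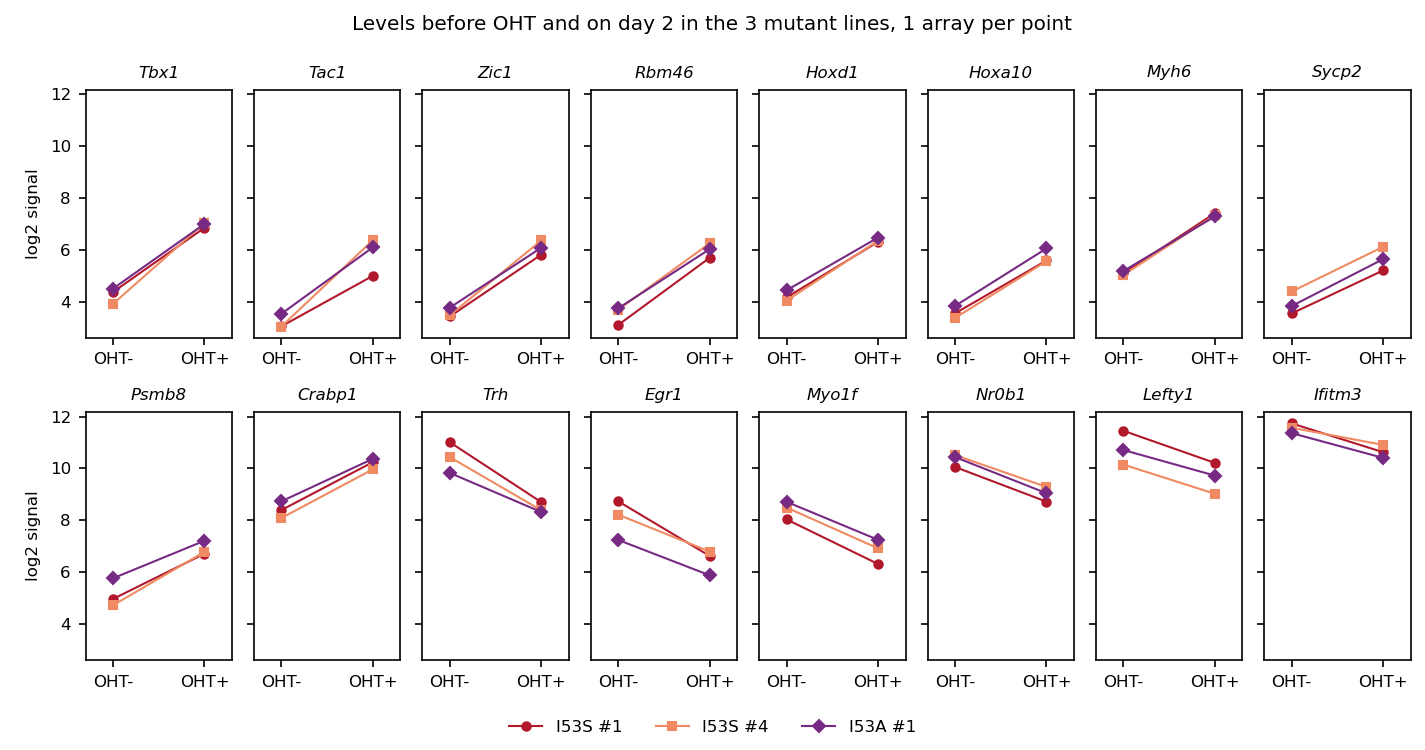
Log2 signal (vertical axis) before OHT and on day 2 of 10 genes that rose (*Tbx1* to *Crabp1*) and 6 that fell (*Trh* to *Ifitm3*), with 1 point per array and a line joining the 2 arrays of a cell line. The 3 lines run nearly in parallel, and *Tac1* shows the largest difference in slope, from 1.95 in I53S #1 to 3.33 in I53S #4.

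The 3 lines moved in the same direction at the called genes and differed more at the others. Across all 16432 genes the log2 changes of I53S #1 and I53S #4 correlated with r = 0.51 (Spearman's rho 0.41), those of I53S #1 and I53A #1 with r = 0.49 (rho 0.40) and those of I53S #4 and I53A #1 with r = 0.51 (rho 0.42). These are descriptions across genes, which are not independent replicates, and the lines share no array. Between the WT lines r was 0.07. The sign was the same in all 3 mutant lines for 47.0% of genes. A change of at least 1 was seen in 494, 421 and 502 genes of the 3 lines, in 909 genes of any line and in 163 genes (0.992%) of all 3. A change of -1 or less was seen in 161, 99 and 154 genes, in 366 genes of any line and in 7 genes (0.0426%) of all 3. In WT #1 and WT #3, 161 and 96 genes changed by at least 1, and 143 and 83 by -1 or less. The per-line counts of falls in the mutant lines were thus near those of the WT lines. All 807 genes called higher were above 0 in each of the 3 lines, and all 255 called lower were below 0, which the test favours.

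The gap between the highest and the lowest of the 3 line changes had a median of 0.37 and a 90th percentile of 0.94 over all genes, and 8 genes changed by at least 1 in one line and by -1 or less in another. The largest gap was that of *AU015791* (3.74), whose signals were 3.54, 6.13 and 3.71 before OHT and 4.29, 4.19 and 5.51 on day 2. *Bmp2*, a BMP ligand gene, had signals of 5.31, 6.75 and 3.77 before OHT and 6.45, 5.81 and 5.64 on day 2. It was higher after OHT in I53S #1 and I53A #1 and lower in I53S #4, and its mean change of 0.69 did not pass (SE 0.53, adjusted p = 0.487). *Ccl24*, a chemokine gene, had 0.55, -1.18 and 1.32, *Nr1i3*, the receptor CAR, -1.53, 1.06 and -0.49, *Pmp2*, a myelin protein gene, -1.06, -0.08 and 1.45, and *Ang4*, an angiogenin gene, 1.08, -0.81 and -1.44. *Ftx*, a non-coding RNA gene next to *Xist*, had -1.09, 0.87 and 1.44, and *Cetn1*, a centrin gene of the testis, 0.04, -1.92 and 0.93. The other 4 of the 12 largest gaps were those of *Olfr672* (2.74), *3300002A11Rik* (2.72), *Pfpl* (2.56) and *9430065F17Rik* (2.39). None of these 12 genes passed the test of the mean change, which their choice by the largest gap favours, because the test weighs the mean against the spread between lines.

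**Figure D2:**
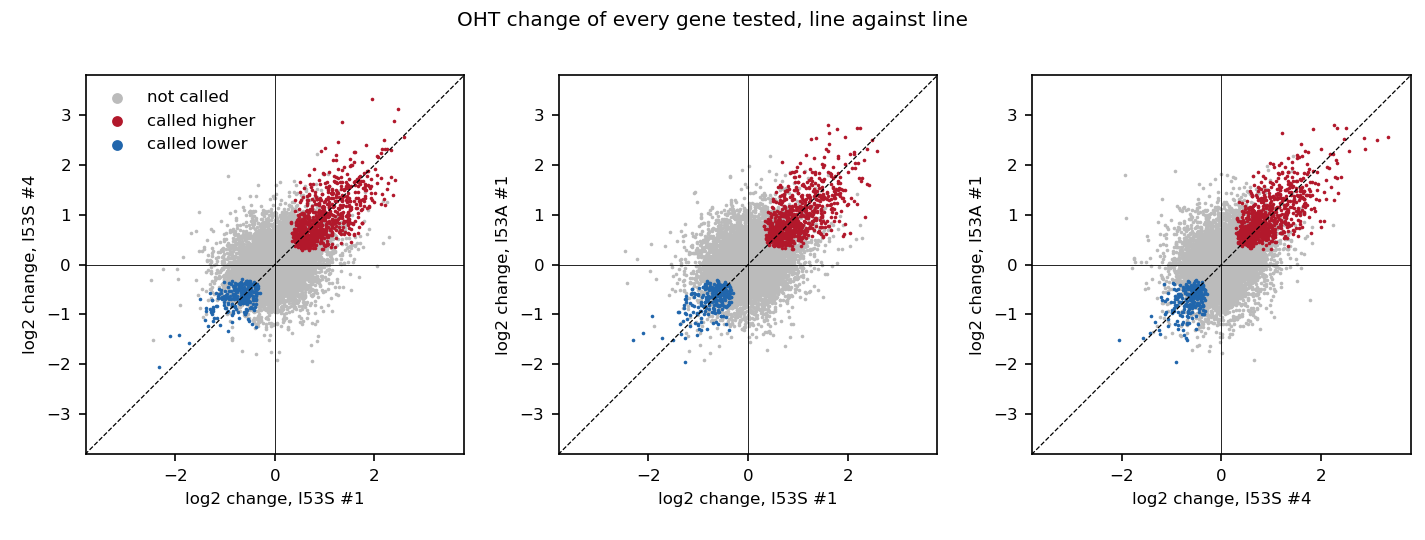
Log2 change after OHT of each of the 16432 genes in one mutant line against another, with genes called higher in red, genes called lower in blue, the others in grey and equality dashed. Genes called higher reach 3.33 and those called lower reach -2.32 in a line, and the grey points spread in all directions around 0.

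For the difference between the mutants, I53S minus I53A, limma called 0 genes in either direction (0.00%) and 0 under each alternative that could be run, and 874 genes had an unadjusted p below 0.05. The smallest p belonged to *Tmem210* (changes of -0.72, -0.84 and 1.13; unadjusted p = 0.00029, adjusted p = 0.93). Its difference was -1.91 (SE 0.20). *4931408D14Rik* had -0.77, -0.63 and 1.01, *Kirrel3*, a cell adhesion gene of neurons, 0.03, -0.03 and -1.55, *Cyp8b1*, a hydroxylase gene of bile acid synthesis, 0.29, 0.22 and -1.40, and *Ttc38* -0.40, -0.53 and 1.08, all with an adjusted p of 0.93. I53A is a single line whose spread was taken from the other lines, and the missing calls do not show that the I53S and I53A lines acted alike.

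For the difference between the mutant and the WT lines, limma also called 0 genes (0.00%), and 2066 had an unadjusted p below 0.05. When only genes with a mean above the median signal were kept, 42 genes were called higher and 5 lower, and trended and robust priors gave 194 and 78. The changes in WT #1 and WT #3 are given beside those of the mutant lines for some genes below, and where a gene passed in the mutant lines only, the difference itself did not pass.

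The mock line, which is left with no Ring1 protein after OHT, is a single line, and its difference from the mutant lines was not tested. Its median changes are set here beside those of the mutant lines for 5 gene lists. Over the *Hox* genes the mock line had 1.44, and the 3 mutant lines had 0.49, 0.35 and 0.60. Over the T-box, forkhead and Gata genes the mock line had 0.68 and the 3 mutant lines had 0.69, 0.45 and 0.49. Over the Zic, Pax and Iroquois genes the mock line had 0.41, which lies within the range of the mutant lines (0.69, 0.36 and 0.65). The germ granule genes had 0.88 in the mock line against 0.58, 0.27 and 0.58, and the naive pluripotency genes -0.26 against -0.22, -0.24 and -0.20. Among single genes, *Tbx1* was at 2.26 in the mock line, *Tac1* at 1.96, *Trh* at -2.53 and *Psmb8* at 0.98, beside mean changes of 2.70, 2.62, -1.96 and 1.75 in the mutant lines.

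Developmental transcription factors of several families rose. Taken as one set of 165 measured genes, the 5 lists had 50 higher and 2 lower, a share of 30.3% against 4.91% over all genes, and a median of 0.41 against -0.01. The medians of the 3 lines were 0.45, 0.39 and 0.42, and those of the WT lines 0.00 and 0.12. The study itself dealt with such genes on these arrays, so that their direction is not independent evidence. Of 30 measured *Hox* genes, which pattern the body axis, 12 rose and 0 fell, and the median was 0.43 (0.49, 0.35 and 0.60 in the 3 lines). *Hoxd1* had signals of 4.16, 4.04 and 4.44 before OHT and 6.31, 6.35 and 6.47 on day 2 and rose by 2.17 (SE 0.10, adjusted p = 0.00405). *Hoxa10*, a posterior gene of the cluster on another chromosome, had signals of 3.54, 3.37 and 3.83 before OHT and 5.59, 5.56 and 6.05 on day 2 and rose by 2.15 (SE 0.13, adjusted p = 0.00536). For both genes the arrays before and after OHT were far apart. *Hoxd9*, *Hoxd8* and *Hoxd13* rose by 1.79, 1.5 and 1.46. Of the *Hoxd13* probe sets, one had a mean change of 0.50 and the other 2.42. With I53S #1, I53S #4 or I53A #1 left out in turn, the counts were 7, 6 and 4 of the Hox genes called higher. *Hoxa10* had 1.14 with dim probe sets kept. With the probe set of highest mean, *Hoxd13* had 2.42. Of these genes, *Hoxd1*, *Hoxa10*, *Hoxd8* and *Hoxd13* kept their calls with any 1 mutant line left out, while *Hoxd9* lost it without at least 1 of them (adjusted p = 0.059).

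Of 18 Zic, Pax and Iroquois genes, 8 rose and 1 fell (median 0.53). The Iroquois homeobox genes are regulators of neural and heart patterning. *Irx3* had signals of 6.41, 6.22 and 6.44 before OHT and 8.14, 7.51 and 7.82 on day 2 and rose by 1.47 (SE 0.12, adjusted p = 0.00617), with WT changes of -0.25 and -0.06. *Irx4*, *Irx2* and *Irx1* rose by 1.58, 1.51 and 1.20. The gene that fell was *Zic5* (-0.70), a relative of *Zic1*, which rose by 2.53. Of 30 T-box, forkhead and Gata genes, 10 rose and 0 fell (median 0.49). *Tbx1* was followed by *Foxc2*, a forkhead gene of mesenchyme, which rose by 1.87 in the mutant lines and had 1.41 and 0.93 in the WT lines. *Gata3*, a factor of trophoblast and T cells, rose by 1.72 with WT changes of 0.77 and 1.35. *Tbx18* and *Tbx4*, T-box genes of heart and hindlimb, rose by 1.52 and 1.52. In this list the medians of the WT lines were also above 0, at 0.24 and 0.33. Left-out fits (I53S #1, I53S #4, I53A #1) gave 4, 4 and 5 of the Zic, Pax and Iroquois genes called higher and 4, 5 and 5 of the T-box, forkhead and Gata genes called higher. *Tbx4* had 2.48 with the probe set of highest mean. Probe sets disagreed within *Zic1* (2 probe sets, from 1.69 to 3.38) and *Tbx4* (2 probe sets, from 0.55 to 2.48). With each mutant line left out in turn, *Irx3*, *Irx4*, *Irx2*, *Zic1*, *Tbx1*, *Foxc2* and *Tbx4* kept their calls, while *Irx1*, *Zic5*, *Gata3* and *Tbx18* lost theirs without at least 1 of them (highest adjusted p from 0.0524 to 0.194). In the unblocked fit, the call of *Zic5* ended (adjusted p = 0.117).

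Of 53 homeobox genes of the LIM, NK and Dlx classes and their relatives, 17 rose and 1 fell (median 0.42). *Hmx1*, of the eye and ear, rose by 2.10, *Otx1*, of the forebrain, by 2.00, *Barx1*, of the stomach and branchial arches, by 1.64, and *Dlx2*, of the forebrain and branchial arches, by 1.60. The gene that fell was *Otx2* (-0.62), the close relative of *Otx1* that is active in ESCs and epiblast. The line changes of *Otx1* were 1.84, 2.40 and 1.76. *Hesx1*, a paired-like homeobox gene of epiblast and pituitary that is in none of these lists, also fell, by 1.16. Of 34 neurogenic bHLH, Sox and Nr2f genes, 3 rose and 0 fell (8.82%, against 4.91% over all genes, median 0.21). They were *Nr2f1*, *Sox8* (0.76) and *Ascl2* (0.58), of which only *Ascl2*, of trophoblast, is a bHLH gene. *Tfap2e*, an AP-2 factor gene outside the lists, rose by 1.96. Counts without I53S #1, I53S #4 and I53A #1 were 7, 8 and 9 of the homeobox genes called higher. Leaving out any 1 mutant line, *Hmx1*, *Otx1*, *Barx1*, *Dlx2*, *Nr2f1* and *Tfap2e* kept their calls, while *Otx2*, *Hesx1*, *Sox8* and *Ascl2* lost theirs without at least 1 of them (highest adjusted p from 0.0794 to 0.132). Dropping the block on the line, the calls of *Otx2*, *Hesx1* and *Ascl2* ended (adjusted p from 0.126 to 0.356).

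**Figure D3:**
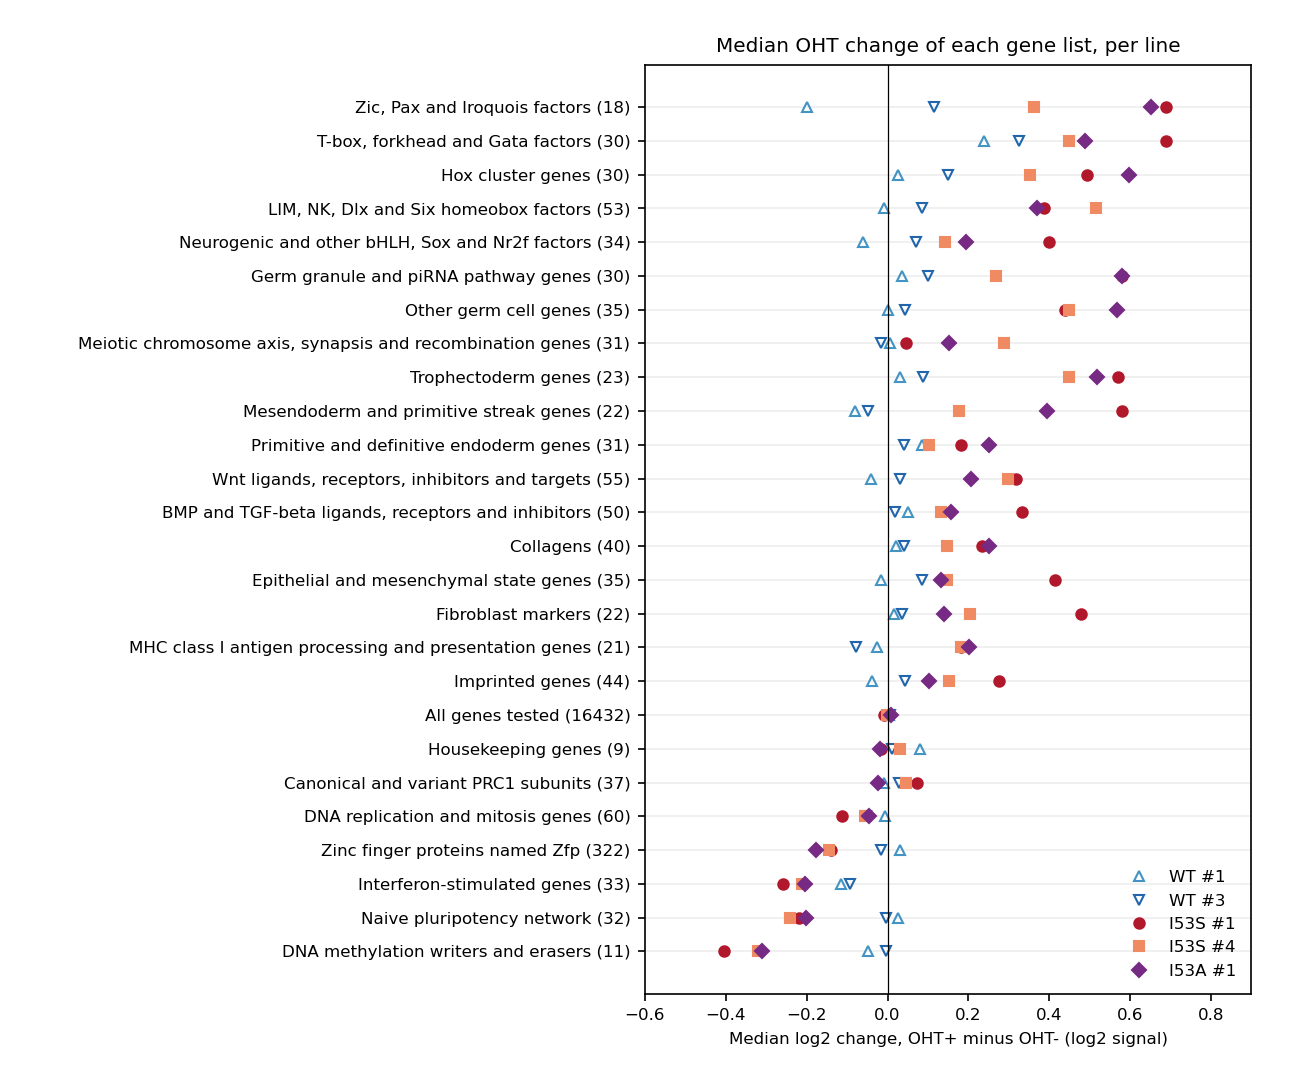
Median log2 change after OHT (horizontal axis) over the measured members of 25 gene lists and over all genes, with filled symbols for the 3 mutant lines, open symbols for the WT lines and the number of genes in parentheses. The Hox genes lie at 0.49, 0.35 and 0.60 in the mutant lines, all genes near 0, and the genes of DNA methylation at -0.40, -0.32 and -0.31.

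Germ cell genes rose in each of 3 lists. Over the 3 lists of the germ line, 35 of 96 measured genes rose and 3 fell (36.5% and 3.12%), with medians of 0.33, 0.30 and 0.49 against 0.02 and 0.05 for WT #1 and WT #3. Of 30 genes of germ granules and the piRNA pathway, which silences transposons in the germ line, 13 rose and 0 fell (median 0.53). *Ddx4*, the Vasa RNA helicase of germ granules, had signals of 7.99, 8.98 and 8.77 before OHT and 9.83, 10.12 and 10.20 on day 2 and rose by 1.47 (SE 0.16, adjusted p = 0.00953). *Mael*, a protein of the piRNA pathway, had signals of 7.13, 8.40 and 8.30 before OHT and 9.32, 9.72 and 9.52 on day 2 and rose by 1.57 (SE 0.20, adjusted p = 0.0141). The rise of *Mael* was larger in I53S #1 than in the other two lines, from the lowest starting signal. *Tdrkh*, a Tudor protein of piRNA trimming, and *Tex15*, of transposon silencing and meiosis, rose by 1.44 and 1.34. Of 31 meiotic genes, 8 rose and 0 fell (median 0.21, with 0.05, 0.29 and 0.15 in the 3 lines). *Sycp2*, a protein of the chromosome axis, had signals of 3.54, 4.39 and 3.83 before OHT and 5.21, 6.12 and 5.64 on day 2 and rose by 1.73 (SE 0.09, adjusted p = 0.00458). The line changes of *Sycp2* differed by 0.15 at most, and those in the WT lines were 0.01 and -0.15. *Syce1* and *Tex12*, of the central element of the synaptonemal complex, rose by 1.53 and 1.66, *Meioc*, which guards meiotic RNAs, by 1.54, and *Tex11*, of crossover formation, by 1.54. With I53S #1, I53S #4 or I53A #1 left out in turn, the counts were 5, 5 and 4 of the germ granule genes called higher and 6, 4 and 2 of the meiotic genes called higher. Without any 1 of the mutant lines *Tex15*, *Sycp2* and *Syce1* kept their calls, while *Ddx4*, *Mael*, *Tdrkh*, *Tex12*, *Meioc* and *Tex11* lost theirs without at least 1 of them (highest adjusted p from 0.0505 to 0.0974). The call of *Tex12* ended when the line was not a block (adjusted p = 0.0737).

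Of 35 other germ cell genes, 14 rose and 3 fell (median 0.48). *Slc25a31*, the ADP/ATP carrier of the testis, had signals of 6.44, 7.61 and 6.69 before OHT and 8.59, 9.03 and 8.63 on day 2 and rose by 1.84 (SE 0.15, adjusted p = 0.00617). *Tex101*, a surface protein of germ cells, had signals of 4.37, 5.86 and 4.50 before OHT and 6.15, 7.70 and 7.23 on day 2 and rose by 2.12 (SE 0.34, adjusted p = 0.0252). *Tex16*, of the testis, *Cpeb1*, a regulator of oocyte translation, and *Figla*, an oocyte bHLH factor, rose by 1.88, 1.64 and 1.52. The genes that fell were *Morc1*, of transposon silencing in spermatogenesis (-1.07), *Tex14*, of germ cell bridges (-0.71), and *Ldhc*, the lactate dehydrogenase of the testis (-0.64). *Hsf5*, a heat shock factor of spermatocytes outside the lists, rose by 2.22, and *Pdcl2*, a phosducin-like gene of the testis, fell by 1.05. Left-out fits (I53S #1, I53S #4, I53A #1) gave 4, 7 and 4 of the other germ cell genes called higher. When any 1 mutant line was left out, *Slc25a31* and *Cpeb1* kept their calls, while *Tex101*, *Tex16*, *Figla*, *Morc1*, *Tex14*, *Ldhc*, *Hsf5* and *Pdcl2* lost theirs without at least 1 of them (highest adjusted p from 0.0571 to 0.158). With no block, the calls of *Slc25a31*, *Ldhc* and *Pdcl2* ended (adjusted p from 0.055 to 0.263).

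**Figure D4:**
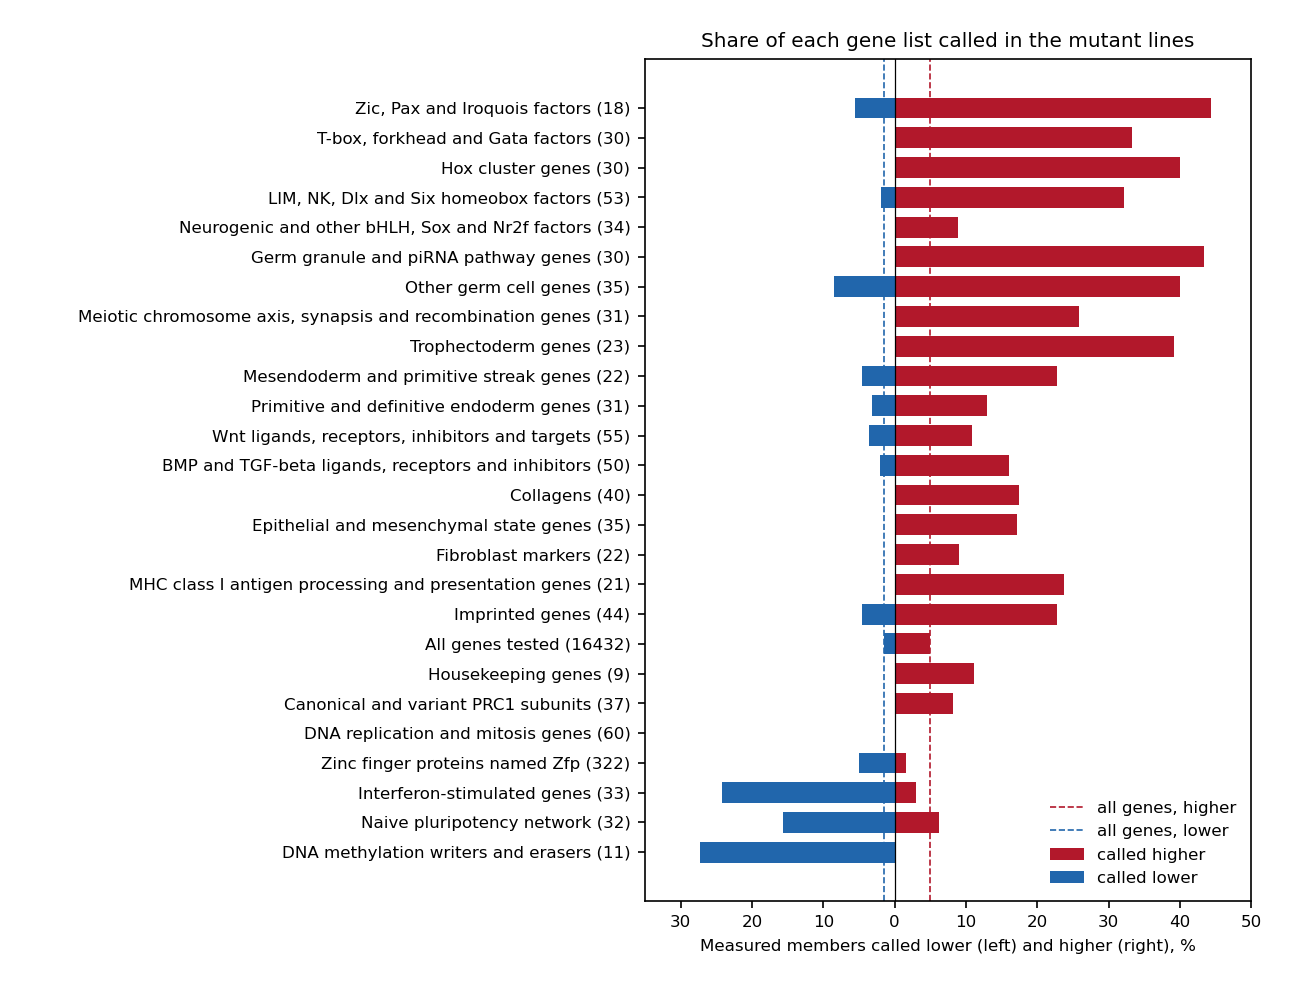
Share of the measured members of 25 gene lists and of all genes called lower (to the left, blue) and higher (to the right, red) in the mutant lines, with the shares over all genes, 1.55% and 4.91%, as dashed lines. The lists of the Zic, Pax and Iroquois, the Hox and the germ granule genes reach 44.4%, 40.0% and 43.3% higher, and those of DNA methylation and interferon-stimulated genes 27.3% and 24.2% lower.

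Promoter sequences were compared because genes of 1 class rose together and germ cell genes have been tied to PRC1 forms whose partners bind an E-box. RefSeq promoter windows (GRCm38.p6) run from 250 bases before a gene's start to 50 after it, and 13107 of the 16432 genes had at least 1, with 16550 windows in all. Windows were searched on both strands for the E-box CACGTG, the E2F motif TCCCGC, the cAMP response element TGACGTCA and the letters TATAAA. None of these motifs contains another, and CACGTG reads the same on both strands. The 4 windows with an E-box and an E2F motif below belong to *Rbm46* (chr3:82876434-82876733, minus strand), *Slc25a31* (chr3:40708621-40708920, plus strand), *Mael* (chr1:166238695-166238994, minus strand) and *Ddx4* (chr13:112652261-112652560, minus strand), and that of *Sycp2* (chr2:178407609-178407908, minus strand) is shown as an example of several risen germ cell genes whose windows hold neither. They are written 5′ to 3′ on the strand of the gene, with both motifs in capitals in either orientation (GCGGGA is TCCCGC on the other strand).
Rbm46: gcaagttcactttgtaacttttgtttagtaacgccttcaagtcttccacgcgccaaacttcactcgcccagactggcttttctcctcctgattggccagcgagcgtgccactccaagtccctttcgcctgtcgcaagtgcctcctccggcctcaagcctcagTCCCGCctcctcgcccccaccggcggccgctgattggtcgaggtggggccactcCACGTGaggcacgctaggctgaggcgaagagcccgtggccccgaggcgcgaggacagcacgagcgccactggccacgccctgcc
Slc25a31: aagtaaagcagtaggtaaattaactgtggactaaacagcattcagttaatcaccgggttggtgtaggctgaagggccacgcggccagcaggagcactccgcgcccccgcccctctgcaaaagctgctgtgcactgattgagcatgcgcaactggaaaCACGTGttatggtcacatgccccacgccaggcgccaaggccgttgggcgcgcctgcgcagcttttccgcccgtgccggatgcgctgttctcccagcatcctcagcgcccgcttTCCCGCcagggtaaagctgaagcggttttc
Mael: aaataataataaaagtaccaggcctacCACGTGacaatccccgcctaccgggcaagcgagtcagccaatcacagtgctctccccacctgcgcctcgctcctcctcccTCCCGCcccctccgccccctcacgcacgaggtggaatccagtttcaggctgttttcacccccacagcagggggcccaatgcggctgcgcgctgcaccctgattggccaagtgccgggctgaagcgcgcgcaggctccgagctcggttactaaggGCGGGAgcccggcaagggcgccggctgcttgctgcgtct
Ddx4: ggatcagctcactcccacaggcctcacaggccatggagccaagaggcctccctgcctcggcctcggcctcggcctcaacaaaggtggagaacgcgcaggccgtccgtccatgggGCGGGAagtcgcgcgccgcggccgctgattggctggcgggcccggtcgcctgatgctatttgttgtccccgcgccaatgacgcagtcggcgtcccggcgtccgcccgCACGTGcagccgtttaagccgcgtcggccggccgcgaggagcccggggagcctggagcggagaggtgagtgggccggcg
Sycp2: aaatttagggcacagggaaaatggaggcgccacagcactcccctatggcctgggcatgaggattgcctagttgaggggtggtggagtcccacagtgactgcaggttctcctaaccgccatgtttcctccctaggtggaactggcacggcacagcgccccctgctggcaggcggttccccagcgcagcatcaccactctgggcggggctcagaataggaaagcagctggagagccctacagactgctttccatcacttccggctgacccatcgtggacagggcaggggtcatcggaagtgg
The E-box starts 34, 93, 223 and 29 bases before the gene's start in *Rbm46*, *Slc25a31*, *Mael* and *Ddx4*, and these windows hold 25, 22, 24 and 38 CG dinucleotides, against 10 in that of *Sycp2*.

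Of the 36 windows of the 32 risen germ cell genes with a window, 16 held the E-box (44.4%), and 9 held it together with the E2F motif (25%). The windows printed above were picked as examples. *Tex101*, *Tex16*, *Tdrkh*, *Syce1* and *Figla*, among others, rose with neither motif in a window, as *Sycp2* did. Of the 65 windows of the germ cell genes that were not called higher, 14 held the E-box (21.5%) and 8 both (12.3%). In the whole table of 32851 windows these shares were 7.15% and 1.99%, over all measured genes 9.09% and 3.26%, over all genes called higher 12.9% and 6.49%, and over those called lower 6.69% and 0.743%. Outside the germ line lists, 11.3% of the 734 windows of the genes called higher held the E-box, and of the 44 windows of the risen developmental factors 15.9% did. The E2F motif, with or without the E-box, was in 30.9% of the windows of all measured genes. It was in 33.8% of those of genes called higher and 23.8% of those of genes called lower. In the germ cell lists it was in 30.6% of the windows of genes called higher and in 47.7% of those of genes not called higher. The cAMP response element was in 2.61%, 1.04% and 2.60%, and TATAAA in 8.91%, 11% and 13.4%. The median number of CG dinucleotides was 17 over all, 19 over the higher and 10 over the lower genes. A match is only a run of letters, its absence says only that the letters are not in the window, and no binding was measured on these arrays.

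**Figure D5:**
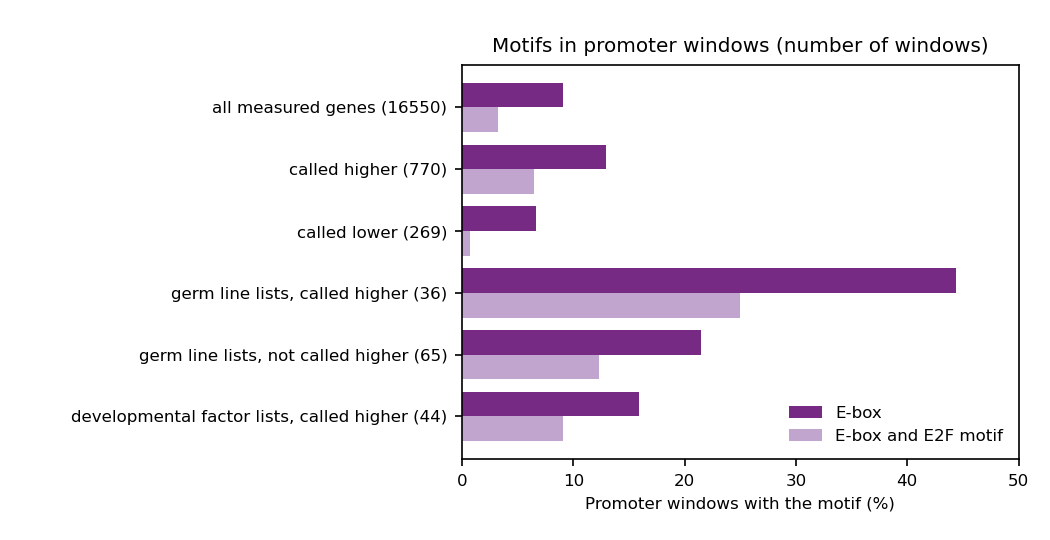
Share of promoter windows (horizontal axis, %) that hold the E-box, and the E-box together with the E2F motif, for 6 groups of genes with the number of windows in parentheses. The E-box is in 44.4% of the windows of risen germ cell genes and in 9.09% of those of all measured genes.

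Genes of the undifferentiated state changed in both directions. Of 32 genes of the naive pluripotency network, 2 rose and 5 fell (6.25% and 15.6%, against 4.91% and 1.55% over all genes). The list median was -0.24, with -0.22, -0.24 and -0.20 in the 3 lines, and 0.03 in WT #1. *Nr0b1*, which acts with the core pluripotency factors, had signals of 10.05, 10.51 and 10.44 before OHT and 8.71, 9.28 and 9.04 on day 2. *Lefty1*, a Nodal inhibitor, had signals of 11.45, 10.15 and 10.71 before OHT and 10.21, 9.02 and 9.72 on day 2 and fell by 1.12 (SE 0.11, adjusted p = 0.00941). The starting signals of *Lefty1* differed between lines more than its changes did. *Eras*, an ESC form of Ras, fell by 0.95, *Manba*, a lysosomal mannosidase gene in this list, by 0.63, and *Lifr*, the receptor for LIF, by 0.55. The 2 genes that rose were *Dppa3*, also known as Stella, and *Klf4* (0.55). *Dppa3*, which is also a germ cell gene, had signals of 9.75, 8.85 and 9.21 before OHT and 10.74, 9.87 and 10.36 on day 2 and rose by 1.05 (SE 0.09, adjusted p = 0.00663). Of 18 genes of the primed epiblast, 4 rose and 3 fell (22.2% and 16.7%). The rises were *Fgf8* (1.48), a growth factor of the primitive streak, *Sfrp2* (1.3), a Wnt antagonist, *Cdh2* (0.80), N-cadherin, and *Krt18* (0.70), a simple keratin, and the falls were *Lef1* (-0.72), *Otx2* (-0.62) and *Dnmt3a* (-0.58), which are described with their own groups. Counts without I53S #1, I53S #4 and I53A #1 were 1, 1 and 1 of the naive pluripotency genes called lower and 2, 2 and 2 of the primed epiblast genes called higher. The changes of single probe sets differed within *Dnmt3a* (5 probe sets, from -1.03 to -0.18). Of these genes, *Nr0b1*, *Dppa3*, *Fgf8* and *Sfrp2* kept their calls with any 1 mutant line left out, while *Lefty1*, *Eras*, *Manba*, *Lifr*, *Klf4*, *Cdh2*, *Krt18*, *Lef1*, *Otx2* and *Dnmt3a* lost theirs without at least 1 of them (highest adjusted p from 0.0636 to 0.179). A fit without the block ended the calls of *Lefty1*, *Dppa3*, *Klf4*, *Cdh2*, *Krt18*, *Lef1*, *Otx2* and *Dnmt3a* (adjusted p from 0.0762 to 0.492).

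Genes of the first lineages rose in part. Of 23 trophectoderm genes, 9 rose (39.1%) and 0 fell, against 4.91% higher and 1.55% lower over all genes. The list median was 0.36, with 0.57, 0.45 and 0.52 in the 3 lines. *Gata3* led the rises, and the X-linked homeobox genes *Rhox9* and *Rhox6* rose by 1.17 and 1.11. *Krt7*, a simple keratin, rose by 0.82, and *Eomes*, a T-box gene of trophoblast and mesendoderm, by 0.82. *Eomes* had signals of 6.98, 7.26 and 7.07 before OHT and 7.79, 8.17 and 7.81 on day 2. Of 22 mesendoderm genes, 5 rose and 1 fell (22.7% and 4.55%, median 0.32). *Gsc*, of the organizer, and *Cdx1*, of the posterior axis, rose by 1.37 and 1.24, *Lhx1*, a LIM homeobox gene of the organizer, by 0.75 and *Fgf8* by 1.48, and *Lefty1* fell. Of 31 endoderm genes, 4 rose and 1 fell (12.9% and 3.23%, median 0.18). *Amn*, of the visceral endoderm, had signals of 5.75, 6.48 and 6.51 before OHT and 8.03, 8.11 and 8.24 on day 2 and rose by 1.88 (SE 0.14, adjusted p = 0.00617), with WT changes of -0.12 and -0.22. *Foxa1*, a pioneer factor of endoderm, rose by 1.46, with WT changes of 1.12 and 0.78, *Col4a1*, of basement membranes, by 0.56 and *Gata6*, of primitive endoderm, by 0.52. *Apoe*, an apolipoprotein gene, fell by 0.56. Of 13 genes of the cleavage stages, 1 rose (7.69%), *Arg2*, an arginase (1.12), which is also active elsewhere. Its WT changes were 0.905 and 0.671. With I53S #1, I53S #4 or I53A #1 left out in turn, the counts were 1, 1 and 2 of the trophectoderm genes called higher, 1, 1 and 2 of the mesendoderm genes called higher and 2, 2 and 1 of the endoderm genes called higher. With the probe set of highest mean, *Gata6* had 0.94. Single probe sets ranged widely for *Gata6* (3 probe sets, from 0.25 to 0.94). With each mutant line left out in turn, *Rhox6*, *Fgf8* and *Amn* kept their calls, while the other 13 lost theirs without at least 1 of them (highest adjusted p from 0.0509 to 0.136). In the unblocked fit, the calls of *Krt7*, *Gsc*, *Lefty1*, *Col4a1*, *Gata6* and *Arg2* ended (adjusted p from 0.0533 to 0.394).

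Among the genes of the Polycomb complexes themselves, some of PRC1 rose and none of PRC2 passed. Of 37 PRC1 genes, 3 rose and 0 fell (8.11% higher, against 4.91% over all genes, median -0.03). An unadjusted p below 0.05 in limma was reached by 16 of the 37, against 3888 of all 16432 genes. *Phc2*, a polyhomeotic subunit of canonical PRC1, had signals of 7.39, 7.93 and 7.56 before OHT and 8.64, 8.78 and 8.57 on day 2 and rose by 1.04 (SE 0.11, adjusted p = 0.00941). *Bmi1*, the PCGF4 subunit, rose by 0.87, and *E2f6*, the DNA-binding partner of a variant PRC1, by 0.64. The line changes of *E2f6* were 0.82, 0.55 and 0.56. Of 14 PRC2 genes and of 15 genes of H2A deubiquitinases and their partners, 0 passed in limma, with 0 and 1 at an unadjusted p below 0.05, and among the smallest p were those of *Phf19* (-0.03, -0.27 and -0.46) and *Epop* (0.24, 0.26 and 0.09) and of *Usp3* (0.23, 0.23 and 0.17) and *Asxl1* (-0.20, -0.44 and -0.24). Of 11 genes of DNA methylation, 0 rose and 3 fell (27.3%, against 1.55% over all genes). In all 3 lines, 8 of the 11 were below 0 (median -0.35), against 3782 of all 16432 genes. *Dnmt3a*, a de novo methyltransferase, had signals of 8.12, 8.13 and 7.73 before OHT and 7.51, 7.46 and 7.26 on day 2 and fell by 0.58 (SE 0.09, adjusted p = 0.0222). *Zfp57*, which protects methylation at imprints, fell by 0.61, and *Tet2*, a dioxygenase of 5-methylcytosine, by 0.53. *E2f6* had 0.97 with the probe set of highest mean. Probe sets disagreed within *E2f6* (2 probe sets, from 0.32 to 0.97) and *Dnmt3a* (5 probe sets, from -1.03 to -0.18). Each of these calls was lost without at least 1 of the mutant lines (highest adjusted p from 0.0578 to 0.169). Dropping the block on the line, the calls of *E2f6*, *Dnmt3a*, *Zfp57* and *Tet2* ended (adjusted p from 0.0534 to 0.154).

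Of 322 zinc finger genes named Zfp, many of them KRAB repressors, 5 rose and 16 fell (1.55% and 4.97%, against 4.91% and 1.55% over all genes). The median was -0.15, with -0.14, -0.15 and -0.18 in the 3 lines and 0.03 and -0.02 in the WT lines. In all 3 mutant lines, 134 of the 322 were below 0 while 31 were above. Among all 16432 genes, 3782 were below 0 and 3941 above 0 in all 3. *Zfp819*, an ESC gene, had signals of 8.42, 7.63 and 7.42 before OHT and 7.16, 6.64 and 6.46 on day 2 and fell by 1.07 (SE 0.10, adjusted p = 0.00833), and *Zfp74* fell by 0.82. *Zfp711*, an X-linked gene, rose by 1.55, but WT #3 had 1.43. *Zfp503*, of the forebrain, *Zfp783*, *Zfp334* and *Zfp275* rose by 1.05, 0.81, 0.67 and 0.45. Along the chromosomes, the share of genes called higher ran from 3.22% on chromosome 16 to 7.27% on X, and the share called lower from 0.68% on chromosome 5 to 3.44% on X. Left-out fits (I53S #1, I53S #4, I53A #1) gave 0, 0 and 0 of the Zfp genes called higher and 2, 2 and 1 of the Zfp genes called lower. With dim probe sets kept, *Zfp711* had 0.74 (adjusted p = 0.0548) and *Zfp334* had 0.33 (adjusted p = 0.215). *Zfp334* had 0.20 (adjusted p = 0.382) with the values as deposited. The changes of single probe sets differed within *Zfp503* (2 probe sets, from 0.76 to 1.34). Without any 1 of the mutant lines *Zfp819* kept its call, while *Zfp74*, *Zfp711*, *Zfp503*, *Zfp783*, *Zfp334* and *Zfp275* lost theirs without at least 1 of them (highest adjusted p from 0.0871 to 0.172). The calls of *Zfp819*, *Zfp74* and *Zfp275* ended when the line was not a block (adjusted p from 0.0602 to 0.0635).

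Genes of the Wnt, BMP and retinoid pathways rose in small numbers. Of 55 Wnt pathway genes, 6 rose and 2 fell (10.9% and 3.64%, against 4.91% and 1.55% over all genes). The list median was 0.30, with 0.32, 0.30 and 0.21 in the 3 lines. *Rspo1*, a secreted enhancer of Wnt signalling, had signals of 5.09, 5.05 and 5.30 before OHT and 6.67, 6.71 and 6.63 on day 2 and rose by 1.52 (SE 0.10, adjusted p = 0.0055). *Sfrp2*, a secreted antagonist, rose by 1.3, and *Axin2* and *Nkd1*, feedback inhibitors that are themselves targets of the pathway, by 1.06 and 0.78. The falls were *Lef1*, a nuclear effector (-0.72), and *Fzd5*, a receptor (-0.66). Of 50 BMP and TGF-beta genes, 8 rose and 1, *Lefty1*, fell (16.0% and 2.0%, median 0.14). The ligand genes *Bmp6*, *Gdf10* and *Bmp7* rose by 1.37, 1.14 and 0.88, and *Id2*, a target of the pathway, by 0.95. The WT changes of *Bmp6* were -0.65 and -0.45, and those of *Id2* were 0.52 and 0.55. Of 16 retinoid genes, 3 rose and 0 fell (18.8% higher, median 0.19). *Crabp1*, which binds retinoic acid in the cell, had signals of 8.39, 8.08 and 8.73 before OHT and 10.24, 9.96 and 10.37 on day 2 and rose by 1.79 (SE 0.09, adjusted p = 0.00458). *Rbp4*, which carries retinol, and *Aldh1a2*, which makes retinoic acid, rose by 1.62 and 1.53. Counts without I53S #1, I53S #4 and I53A #1 were 2, 2 and 2 of the Wnt genes called higher and 0, 2 and 1 of the BMP and TGF-beta genes called higher. *Axin2* had 0.54 with dim probe sets kept. *Nkd1* had 0.26 (adjusted p = 0.676) and *Bmp7* had 0.44 (adjusted p = 0.316) with the probe set of highest mean. Single probe sets ranged widely for *Nkd1* (4 probe sets, from 0.01 to 1.62), *Bmp7* (3 probe sets, from 0.44 to 1.18) and *Id2* (3 probe sets, from 0.66 to 1.17). When any 1 mutant line was left out, *Rspo1*, *Sfrp2*, *Crabp1* and *Rbp4* kept their calls, while *Axin2*, *Nkd1*, *Lef1*, *Fzd5*, *Lefty1*, *Bmp6*, *Gdf10*, *Bmp7*, *Id2* and *Aldh1a2* lost theirs without at least 1 of them (highest adjusted p from 0.0607 to 0.179). With no block, the calls of *Lef1*, *Fzd5*, *Lefty1* and *Id2* ended (adjusted p from 0.0638 to 0.492).

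A few genes that ERK signalling controls fell. Of 29 genes that ERK signalling controls, 0 rose and 3 fell (10.3% lower). Over all genes, 4.91% were called higher and 1.55% lower. The list median was -0.06, with 0.09, -0.06 and -0.09 in the 3 lines. The falls were *Egr1*, *Myc*, a growth-promoting factor (-0.71), and *Etv5*, an Ets factor (-0.67). *Egr1* also had -0.85 and -0.52 in the WT lines. Of 35 immediate early genes, *Egr1* and *Myc* fell (5.71%) and *Klf4* rose (2.86%). Of 27 FGF ligands and receptors, *Fgf8* rose and *Fgf17*, of the same subfamily, fell by 1.01 (3.7% higher and 3.7% lower). *Fgf8* had line changes of 1.3, 1.66 and 1.47 and *Fgf17* of -0.95, -0.77 and -1.31. Of 35 Hedgehog and Notch genes, 3 rose (8.57%) and 0 fell. They were *Dll3*, a Notch ligand of somites (1.18), *Dhh*, desert hedgehog (0.72), and *Hes6*, a repressor of the Hes family (0.70). Of 61 genes of axon guidance, 9 rose (14.8%) and 1 fell (1.64%), *Sema4a* (-0.44). *Plxnd1*, a semaphorin receptor, and *Slit2*, a repellent, rose by 1.28 and 1.00, with WT changes of -0.41 and -0.12 and of -0.86 and -0.38. With I53S #1, I53S #4 or I53A #1 left out in turn, the counts were 1, 0 and 0 of the axon guidance genes called higher. *Slit2* had 0.65 with dim probe sets kept. Of these genes, *Fgf8* kept its call with any 1 mutant line left out, while the other 11 lost theirs without at least 1 of them (highest adjusted p from 0.0519 to 0.191). A fit without the block ended the calls of *Myc*, *Etv5*, *Klf4*, *Fgf17* and *Sema4a* (adjusted p from 0.102 to 0.429).

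Several genes of antigen presentation rose, and several other interferon-stimulated genes fell. Of 21 genes of MHC class I presentation, 5 rose and 0 fell (23.8%, median 0.20, with 0.18, 0.18 and 0.20 in the 3 lines). *Psmb8*, a subunit of the immunoproteasome, had signals of 4.96, 4.71 and 5.76 before OHT and 6.71, 6.77 and 7.21 on day 2 and rose by 1.75 (SE 0.13, adjusted p = 0.00617). Its changes in the WT lines were -0.75 and -0.89, and the difference, 2.57 (SE 0.21), had an adjusted p of 0.088. *H2-Q10* and *H2-Q2*, class I genes of 1 multigene family whose probe sets may share targets, rose by 1.21 and 0.92, *Psmb9*, another immunoproteasome subunit, by 0.91, and *B2m*, the light chain of class I, by 0.68. Of the 9 measured housekeeping genes, *B2m* was the only one called. Of 33 interferon-stimulated genes, 1 rose and 8 fell (3.03% and 24.2%, median -0.15). Every line of the series had a median below 0 over this list. The mutant lines had -0.26, -0.21 and -0.20, WT #1 had -0.11, WT #3 had -0.09 and the mock line had -0.10. Whether these medians differ was not tested. *Ifitm3*, which blocks virus entry and is strong in ESCs, had signals of 11.73, 11.57 and 11.36 before OHT and 10.62, 10.91 and 10.40 on day 2 and fell by 0.91 (SE 0.11, adjusted p = 0.0137). *Ifitm1* and *Gbp2*, a GTPase, fell by 0.82 and 0.85, and *Samd9l* by 0.88. In the WT lines *Gbp2* had -0.59 and -0.98. The 1 gene that rose was *Cxcl10*, a chemokine (1.12). Left-out fits (I53S #1, I53S #4, I53A #1) gave 2, 3 and 2 of the MHC class I genes called higher and 0, 1 and 0 of the interferon-stimulated genes called lower. *Psmb8* had 0.83 with dim probe sets kept. With each mutant line left out in turn, *Psmb8* and *H2-Q10* kept their calls, while *H2-Q2*, *Psmb9*, *B2m*, *Ifitm3*, *Ifitm1*, *Gbp2*, *Samd9l* and *Cxcl10* lost theirs without at least 1 of them (highest adjusted p from 0.074 to 0.173). In the unblocked fit, the calls of *H2-Q2*, *B2m*, *Gbp2* and *Cxcl10* ended (adjusted p from 0.111 to 0.378).

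Some genes of differentiated cells rose. Of 42 contractile genes of muscle, 5 rose and 0 fell (11.9%, median 0.12). *Myh6* had signals of 5.09, 5.03 and 5.18 before OHT and 7.41, 7.33 and 7.29 on day 2, rose by 2.25 (SE 0.10, adjusted p = 0.00405) and had 1.00 and 0.76 in the WT lines. *Myh3*, the embryonic myosin of skeletal muscle, *Myl7*, an atrial light chain, *Myh7*, the beta heavy chain, and *Myl9*, of smooth muscle, rose by 1.33, 0.86, 0.84 and 0.69. *Actn3*, an actinin gene of fast muscle outside the list, fell by 1.03. Of 45 peptide precursors, 6 rose and 1, *Trh*, fell (13.3%, median 0.17). *Tac1*, *Grp*, the gastrin-releasing peptide, *Prok2*, a prokineticin, and *Penk*, the enkephalin precursor, rose by 2.62, 2.08, 1.68 and 1.42. Of 71 potassium channel genes, 3 rose and 1 fell, with *Kcnk6* at 1.02, *Kcna1* at 0.84, *Kcnh1* at 0.60 and *Kcnk16* at -0.51. These shares, 4.23% and 1.41%, were near those over all genes, 4.91% and 1.55%. Of 29 calcium and sodium channel genes, *Scn3a* fell by 0.66 and no other passed. *Gabra4* and *Gabra5*, GABA receptor subunits, rose by 1.46 and 0.92 among 31 genes of GABA and glutamate receptors (6.45%). *Reln*, of cortical layering, rose by 1.66, *Wt1*, of the kidney and gonad, by 1.68, and *Cd34*, of blood stem cells and endothelium, by 1.21. *Cd34* had 0.64 and 0.66 in the WT lines. Counts without I53S #1, I53S #4 and I53A #1 were 3, 1 and 1 of the contractile genes called higher and 4, 5 and 3 of the peptide precursor genes called higher. *Myh6* had 1.19, *Tac1* had 1.18, *Prok2* had 0.70, *Scn3a* had -0.42 (adjusted p = 0.118) and *Reln* had 0.97 with dim probe sets kept. *Tac1* had 1.06 with the values as deposited. Probe sets disagreed within *Kcna1* (3 probe sets, from 0.08 to 1.45) and *Gabra4* (2 probe sets, from 1.00 to 1.92). Leaving out any 1 mutant line, *Myh6*, *Trh*, *Penk* and *Wt1* kept their calls, while the other 17 lost theirs without at least 1 of them (highest adjusted p from 0.06 to 0.145). Dropping the block on the line, the calls of *Myl7*, *Myh7*, *Myl9*, *Kcnk16*, *Scn3a* and *Cd34* ended (adjusted p from 0.0562 to 0.442).

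Genes of the matrix and of cell contacts followed. Of 40 collagen genes, 7 rose and 0 fell (17.5%, median 0.22), led by *Col8a2* (1.56), *Col13a1* (1.11) and *Col11a1* (1.09). Their WT changes were, in this order, 0.27 and -0.15, -0.37 and 0.80, and 0.90 and 0.53. Of 44 other matrix genes, 7 rose and 0 fell (15.9%, median 0.23). *Thbs4*, a thrombospondin, had signals of 3.95, 4.27 and 4.20 before OHT and 5.62, 5.61 and 5.82 on day 2 and rose by 1.54 (SE 0.10, adjusted p = 0.0055), and *Fbn2*, a fibrillin, rose by 1.34. Collagens and matrix genes are also made by fibroblasts. The medians of the 3 lines were 0.23, 0.15 and 0.25 over the collagens, 0.37, 0.18 and 0.12 over the other matrix genes and 0.48, 0.20 and 0.14 over the fibroblast markers, whose part in these rises was not tested. *Adamts20*, a protease gene outside the list, rose by 2.06, with WT changes of 0.00 and 1.12. Of 67 claudin, keratin and desmosome genes, 10 rose and 0 fell (14.9%, median 0.20). *Krt79* and *Krt28*, keratins of skin and hair, rose by 1.61 and 1.22, and *Pkp1* and *Dsc2*, of desmosomes, by 1.20 and 1.06. Of 35 genes of the epithelial and mesenchymal states, 6 rose (17.1%) and 0 fell. The risen genes came from both sides, with *Esrp1*, an epithelial splicing factor, at 0.84 and *Tgfbi*, a matrix protein of mesenchyme, at 0.87. Of 25 integrin genes, 3 rose, *Itga8* (1.13), *Itga7* (0.85) and *Itga1* (0.58), and 2 fell, *Itgb2l* (-0.76) and *Itgb7* (-0.67). With I53S #1, I53S #4 or I53A #1 left out in turn, the counts were 1, 1 and 0 of the collagen genes called higher, 1, 2 and 1 of the other matrix genes called higher, 1, 1 and 2 of the claudin, keratin and desmosome genes called higher and 1, 1 and 1 of the epithelial and mesenchymal genes called higher. *Itga8* had 0.61 (adjusted p = 0.0702) and *Itga1* had 0.32 (adjusted p = 0.15) with dim probe sets kept. *Dsc2* had 1.60 with the probe set of highest mean. The changes of single probe sets differed within *Dsc2* (2 probe sets, from 0.52 to 1.60) and *Tgfbi* (4 probe sets, from 0.14 to 1.27). Without any 1 of the mutant lines *Thbs4* and *Krt79* kept their calls, while the other 15 lost theirs without at least 1 of them (highest adjusted p from 0.0533 to 0.177). The calls of *Col13a1*, *Dsc2*, *Tgfbi*, *Itga8* and *Itgb2l* ended when the line was not a block (adjusted p from 0.0602 to 0.256).

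Some imprinted genes, solute carriers and genes of lipid handling rose. Of 7 CDK inhibitor genes 1 rose (14.3%, against 4.91% over all genes), *Cdkn1c*, which encodes p57 and is imprinted. It had signals of 6.82, 7.38 and 7.54 before OHT and 8.69, 8.98 and 9.06 on day 2 and rose by 1.66 (SE 0.11, adjusted p = 0.0055), with WT changes of -0.07 and 0.18. Of 44 imprinted genes, 10 rose and 2 fell (22.7% and 4.55%, median 0.11). *Gatm*, of creatine synthesis, *Plagl1*, a zinc finger gene, *Ndn*, necdin, and *Igf2*, the fetal growth factor, rose by 1.60, 1.24, 1.04 and 0.96, and *Peg3* (-0.80) and *Ube3a* (-0.41) fell. Rises came from genes expressed from the maternal allele, such as *Cdkn1c*, and from the paternal allele, such as *Igf2* and *Ndn*. Of 27 genes of lipid handling, 3 rose and 1 fell (11.1% and 3.7%, against 4.91% and 1.55% over all genes, median 0.07). *Fabp5*, a fatty acid binding protein, had signals of 10.04, 10.30 and 10.36 before OHT and 11.49, 11.67 and 11.64 on day 2 and rose by 1.37 (SE 0.09, adjusted p = 0.0055), and *Lpl*, lipoprotein lipase, rose by 1.5. Of 26 genes of the methionine and one-carbon cycles 1 rose (3.85%), *Bhmt2*, with signals of 3.03, 3.62 and 3.49 before OHT and 5.22, 6.11 and 6.23 on day 2. Of 308 solute carriers, 24 rose (7.79%, against 4.91% over all genes) and 1, *Slc7a3*, fell. Among them *Slc16a11*, *Slc6a11*, *Slc7a8* and *Slc30a2* rose by 1.68, 1.28, 1.25 and 1.18. Left-out fits (I53S #1, I53S #4, I53A #1) gave 4, 3 and 1 of the imprinted genes called higher and 5, 3 and 4 of the solute carrier genes called higher. *Ndn* had 0.59, *Peg3* had -0.49 and *Slc6a11* had 0.81 with dim probe sets kept. *Plagl1* had 1.97 with the probe set of highest mean. Single probe sets ranged widely for *Plagl1* (3 probe sets, from 0.22 to 1.97). When any 1 mutant line was left out, *Cdkn1c*, *Fabp5*, *Lpl*, *Bhmt2*, *Slc7a8* and *Slc30a2* kept their calls, while *Gatm*, *Plagl1*, *Ndn*, *Igf2*, *Peg3*, *Ube3a*, *Slc7a3*, *Slc16a11* and *Slc6a11* lost theirs without at least 1 of them (highest adjusted p from 0.0522 to 0.188). With no block, the calls of *Plagl1*, *Igf2* and *Ube3a* ended (adjusted p from 0.0657 to 0.143).

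The genes of basic cell functions mostly did not pass, but the shares of chaperone and p53 target genes called higher were above that over all genes. Of 60 genes of DNA replication and mitosis, 22 of glycolysis and 21 of the hypoxia response, 0 passed in limma, with 9, 3 and 5 at an unadjusted p below 0.05 and medians of -0.08, -0.07 and -0.04. Among the smallest p were those of *P4ha2*, a prolyl hydroxylase gene (0.89, 0.33 and 0.70, adjusted p = 0.0513), *Rfc1*, of the clamp loader (-0.44, -0.29 and -0.62, adjusted p = 0.0609), and *Pdk1*, a kinase that restrains pyruvate oxidation (-0.52, -0.51 and -0.30, adjusted p = 0.0716). Of 121 ribosomal protein genes 1 was called higher (0.826%), *Rps6* (0.56), whose 2 probe sets had mean changes of -0.04 and 1.15. Of 80 genes of oxidative phosphorylation 1 rose (1.25%), *Cox7b2*, a testis form (0.77), and of 20 cholesterol genes 1 fell (5.0%), *Idi1* (-0.59). Of 25 p53 target genes 2 rose (8.0%), *Pmaip1*, the BH3 protein Noxa (0.73), and *Phlda3* (0.54). Of 18 chaperone genes 3 rose (16.7%), *Hspa1b* (0.79), *Bag3* (0.66) and *Serpinh1* (0.62), the last a collagen chaperone. Over all genes, 4.91% were called higher and 1.55% lower. The median of the 9 housekeeping genes was -0.01. Quantile normalization gives all arrays 1 distribution, so these medians near 0 hold relative to that distribution. *Rps6* had -0.04 (adjusted p = 0.835) with the probe set of highest mean. Each of these calls was lost without at least 1 of the mutant lines (highest adjusted p from 0.0764 to 0.169). A fit without the block ended the calls of *Rps6*, *Cox7b2*, *Idi1*, *Phlda3*, *Hspa1b* and *Serpinh1* (adjusted p from 0.0602 to 0.463).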

How the data were processed

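RNA of 12 cultures of 6 ESC lines was hybridised to Affymetrix mouse expression arrays, 1 array a culture. The values used are log2 signals of 45101 probe sets that the authors deposited, made with Affymetrix Expression Console and RMA according to the submitters' processing notes (versions not given), whereas the study's methods describe MAS5 signals and quantile normalization. The deposited array medians ran from 4.66 to 5.67, so the 12 arrays were quantile-normalised here, which sets all arrays to 1 distribution and hides a shift shared by most genes.

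After 64 control probe sets were left out, 34945 had 1 gene symbol, 932 had several and 9160 had none. A probe set was kept with a signal over 3.94, the 30th percentile of all values, on at least 1 array, and 30374 such probe sets with 1 symbol were averaged per gene, giving 16432 genes. Arrays of a line were paired by the line's name (correlation of their deviations 0.36 to 0.43). limma 3.58.1 (R 4.3.3) was fitted to all 12 arrays with a term for each cell line and OHT terms for the mutant, WT and mock lines (I53S and I53A apart for their difference), and had 3 residual and 2.79 prior degrees of freedom, and Benjamini-Hochberg adjustment over all genes. Fits were tested on simulated data. Tables were made with Python 3.11.15 and pandas 2.3.3. The number of arrays, 1 per line and condition, limits the precision. No batch of arrays was named in the labels.

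The genes named are the 30 largest rises and 25 largest falls among called genes, up to 5 called members of each of 61 lists or else the 2 of smallest p, the 12 largest gaps between lines and the 5 smallest p for I53S minus I53A. *Zic5*, *Otx2*, *Tex14*, *Ldhc*, *Peg3*, *Ube3a*, *Lifr*, *Fzd5*, *Sema4a*, *Lhx1*, *Zfp334* and *Zfp275* were named after their values were seen. The lines, lists and tests were chosen with earlier results of these data known. Alternatives were the values as deposited, median centring, the probe set of highest mean, other filters, the mutant arrays alone, no block, other priors, a minimum change and each line left out.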

Additional observations from a re-analysis of the deposited data

Results flagged for a closer look

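Of the gene lists, 3 had medians on opposite sides of 0 in the mutant and the WT lines, all 3 mutant lines lying above 0 and both WT lines below it. The genes of MHC class I presentation had a median of 0.2043 over the mutant lines, and -0.02 and -0.08 in WT #1 and WT #3. The mesendoderm genes had 0.3226, against -0.08 and -0.05. The calcium and sodium channel genes had 0.0487, against -0.05 and -0.09. The differences of these medians were not tested, and among 61 lists some can meet such a rule on signs by chance.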

How the results depend on the processing

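The count of genes called higher, 807 as reported, was 486 with no replicate block and 1365 with trended and robust priors, and it ran from 144 (without I53A #1) to 807 (without the mock line) when 1 line was left out. The count called lower, 255 as reported, was 571 with the values as deposited, 689 with a higher filter on mean signal, 125 with the mutant arrays alone, 77 with no replicate block and 854 with trended and robust priors, and it ran from 9 (without I53A #1) to 255 (without the mock line). Between mutant and WT lines, with 0 calls as reported, the higher filter gave 42 higher and 5 lower and the priors 194 and 78. The count called higher was also 540 with the values as deposited, 610 with the mutant arrays alone and 1088 with the higher filter, and from 767 to 911 with median centring, the probe set of highest mean or no filter, which gave 208 to 264 called lower. I53S minus I53A gave 0 calls in each fit, and it could not be fitted without I53A.

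Of 225 called genes, chosen by the naming rule or named after their values were seen, 148 kept the call with no replicate block, 193 with the values as deposited, and 81, 89 and 72 without I53S #1, I53S #4 and I53A #1. In each of these 3 fits without a mutant line, 55 of the 225 genes kept the call, and 112 lost it whichever mutant line was left out. The sign turned for 2 genes: *Rps6* was at -0.0392 with the probe set of highest mean or the higher filter, and *Il1rl2* at -0.1512 with the probe set of highest mean. The causes were not tested. Of the list medians under the alternatives, 749 moved by less than 1 SD of the lines and 105 by more.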
